A study of Mus musculus with 21 samples.

Results

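The RGS genes Rgs1, Rgs2, Rgs3, Rgs4, Rgs5, Rgs10, Rgs14, Rgs16, Rgs17 and Rgs19, were followed in mouse calvarial cultures treated with fragments of parathyroid hormone (PTH). The genes were chosen by symbol, each through the array row that carries that symbol alone, with the brightest row taken where a gene had several. All 10 were found among the 22180 genes measured. Rgs4 was lower with each of the 3 fragments that begin at residue 1 (by 0.98 log2 units on average), and Rgs2 was higher in their mean (by 0.39) but not past the test with hPTH(1-34) alone. Rgs1 and Rgs19 were lower with those fragments than with bPTH(3-34), and the other 6 genes did not pass the test in any comparison.

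RGS proteins (regulators of G protein signalling) bind the GTP-loaded alpha subunit of a G protein and speed its GTP hydrolysis, which shortens the signal from a receptor. Most act on the Gi and Gq families and not on Gs. The PTH receptor, Pth1r, couples both to Gs, which raises cyclic AMP through adenylyl cyclase, and to Gq, which activates phospholipase C. The first residues of PTH are known to be needed for cyclic AMP production, and Rgs2 has long been known as a gene that PTH and cyclic AMP induce in osteoblasts.

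Cells were released from calvaria of C57BL/6J pups aged 7 to 10 days in 3 digestions that were pooled, differentiated at passage 2 from day 3 to day 10, and then kept for 24 h without serum in 0.5% BSA, as all groups were. They then received vehicle, 100 nM hPTH(1-34), 100 nM hPTH(1-31), 100 nM PTH(1-36), 100 nM bPTH(3-34), 100 nM hPTH(7-34) or 1000 nM bPTH(7-34) for 4 h. The last peptide is the bovine amide with D-Trp at residue 12 and Tyr at residue 34. It thus differs from hPTH(7-34) in dose, species and sequence and was tested against vehicle only. The letters h and b mark human and bovine peptides, and no species is given for PTH(1-36). The 3 fragments that begin at residue 1 are called intact here and the other 3 truncated. Each of the 7 groups had 3 arrays, and the series' design text says that cells were prepared separately for every replicate. Values are log2 signals of Mouse Gene 2.0 ST arrays, and differences are in log2 units with the standard error (SE) of a linear model. A gene was called when its p-value, adjusted over all 22180 genes, was under 0.05.

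Array medians lay between 3.49 and 3.61, and arrays of a group correlated at 0.990 to 0.993 over all genes. Of 15 genes known to respond to cyclic AMP, limma called 14 higher with hPTH(1-34), beside 8.64% of all genes called. Against vehicle it called 0 of the 15 with each truncated analog. Of all genes, 0%, 0% and 0.0721% were called with bPTH(3-34), bPTH(7-34) and hPTH(7-34). At an unadjusted p under 0.05 it counted 0, 3 and 2 of the 15, in the same order. The list was chosen with earlier results of these data known, so its counts are not an independent check. Of 14 osteoblast markers listed, 10 had a row of their own. Of these, 8 lay above the median of all genes, 4.42, by their mean over the 21 arrays, among them Col1a1 (mean 13.25 in vehicle), Alpl (8.93) and Ibsp (6.65), and the other 2, Bglap (3.73) and Dmp1 (3.28), lay below it. Markers of macrophages were also bright in vehicle, Lyz2 at 12.22 and Csf1r at 10.20, so the cultures held RNA of both kinds of cell. The arrays measured whole cultures, in which fewer cells of a type and less RNA per cell cannot be told apart.

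The sequence before the start of Rgs4 and Rgs2 is shown because these genes moved in opposite directions with the same peptides. RefSeq's promoter table for GRCm38.p6 lists windows for 8 of the 10 genes and none for Rgs1 and Rgs14. Each window runs from 250 bases before the start to 50 after it. The motifs searched, all on both strands, were the cyclic AMP response element TGACGTCA, its core TGACG, which the full element contains, the AP-1 site TGANTCA and the NR4A site AAAGGTCA. The lines give the 250 bases before the start, 5′ to 3′ on the gene's own strand, with matches to TGACG or its reverse complement in capitals.
Rgs4: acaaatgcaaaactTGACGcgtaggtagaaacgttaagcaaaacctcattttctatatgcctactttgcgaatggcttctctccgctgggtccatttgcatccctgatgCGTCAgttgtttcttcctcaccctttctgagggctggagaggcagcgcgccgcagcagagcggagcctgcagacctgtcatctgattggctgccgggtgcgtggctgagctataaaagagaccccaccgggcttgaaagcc
Rgs2: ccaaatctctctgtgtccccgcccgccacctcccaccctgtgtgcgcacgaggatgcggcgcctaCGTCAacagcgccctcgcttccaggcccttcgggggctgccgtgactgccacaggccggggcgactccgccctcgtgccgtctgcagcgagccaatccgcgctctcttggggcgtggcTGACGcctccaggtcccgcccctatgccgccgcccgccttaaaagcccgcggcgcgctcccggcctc
The Rgs4 stretch is chr1:169747643-169747892 and the Rgs2 stretch chr1:144004150-144004399, both on the minus strand. Each holds the core 2 times, starting at -236 and -141 in Rgs4 and at -185 and -67 in Rgs2. The windows of the other 6 genes listed hold it 0 times. Of all 32851 windows in the table, 20.8% hold the core, so a match is common. The full element, found in 1.79% of windows, and the NR4A site, in 1.51%, have 0 matches in the windows of these genes. The AP-1 site, in 7.81% of all windows, has 1 match, in Rgs17 at -122. On chromosome 1, 5 of the genes sit beside other RGS genes: Rgs2, Rgs13, Rgs1 and Rgs21 follow each other among the protein-coding genes, Rgs5 is next to Rgs4, and Rgs16 is next to Rgs8.

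Over the 7 groups together, limma's moderated F test called 4 of the 10 genes, against 2717 of 22180 genes (12.2%). They were Rgs4 (adjusted p = 1.02e-05), Rgs1 (0.000704), Rgs2 (0.0150) and Rgs19 (0.0432). The group means of Rgs4 ranged over 1.49 log2 units, those of Rgs1 over 0.75, of Rgs2 over 0.47 and of Rgs19 over 0.40. The other 6 genes had ranges between 0.21 (Rgs14) and 0.36 (Rgs3 and Rgs5), with adjusted p between 0.373 and 0.931.

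**Figure D1:**
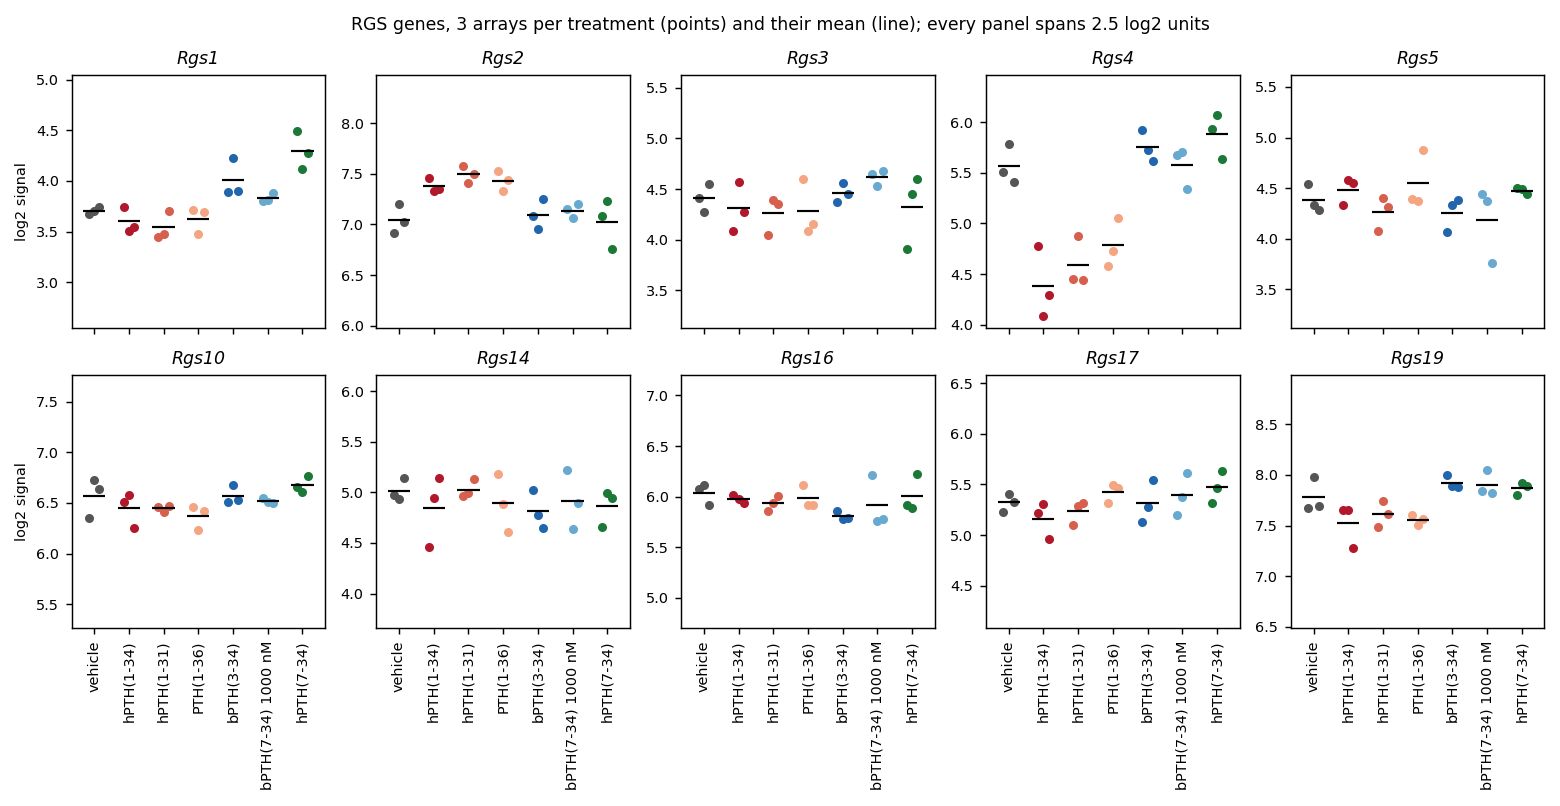
Log2 signal (vertical axis) of the 10 RGS genes in each treatment (horizontal axis), with points for the 3 arrays and a line at their mean; every panel spans 2.5 log2 units. The 9 arrays of the intact analogs lie below all 12 other arrays for Rgs4 (highest 5.05 against lowest 5.34) and above them for Rgs2 (lowest 7.33 against highest 7.25). Intact and vehicle arrays did not overlap in 11% of all genes, and the share against all 12 others was not counted.

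Against vehicle, hPTH(1-34) gave a call for 1 of the 10 genes, Rgs4, where 8.64% of all genes were called. With hPTH(1-31) 2 of the 10 were called (Rgs4 lower, Rgs2 higher) beside 8.7% of all genes, and with PTH(1-36) the same 2 beside 7.23%. The mean of the 3 intact analogs called these 2 as well, beside 11.9%. Counts of 1 or 2 in 10 are near these shares and are not a result about the family. With bPTH(3-34) and bPTH(7-34), limma called 0 of the 10 genes, and 0% of all genes. With hPTH(7-34) it called 0 of the 10 beside 0.0721% of all genes. At an unadjusted p under 0.05, limma counted 1 of the 10 with bPTH(3-34), 0 with bPTH(7-34) and 1 with hPTH(7-34), out of 1313, 1151 and 1817 among all genes. All these comparisons share the 3 vehicle arrays. The median difference of the 10 genes was -0.12 with hPTH(1-34) and 0.09 with hPTH(7-34), where that of all genes was -0.01 and 0.00.

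Rgs4 encodes a small RGS protein that acts on Gi and Gq. Its vehicle arrays read 5.51, 5.78 and 5.41. The arrays with hPTH(1-34) read 4.78, 4.09 and 4.29. Those with hPTH(1-31) read 4.45, 4.88 and 4.44, and those with PTH(1-36) 4.58, 4.73 and 5.05. Every array of an intact analog was below every vehicle array. Intact and vehicle arrays did not overlap in 11% of all genes. Rgs4 fell by 1.18 ± 0.18 (SE) with hPTH(1-34), which is 2.27-fold lower (95% interval -1.56 to -0.80, adjusted p = 0.000222, n = 3 against 3, limma). It fell by 0.98 ± 0.18 with hPTH(1-31), 1.97-fold lower (-1.36 to -0.59, 0.00142). With PTH(1-36) it fell by 0.78 ± 0.18, 1.72-fold lower (-1.16 to -0.40, 0.0109). That last call was lost when vehicle replicate 2 (adjusted p = 0.0666) or PTH(1-36) replicate 1 (0.0578) was left out. The mean of the intact analogs was 0.98 ± 0.15 below vehicle (limma, adjusted p = 0.000135).

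Rgs4 showed no such shift in the arrays of the truncated analogs. The arrays with bPTH(3-34) read 5.92, 5.73 and 5.62, those with bPTH(7-34) 5.68, 5.71 and 5.34, and those with hPTH(7-34) 5.93, 6.07 and 5.64. All 3 groups overlapped vehicle, and limma called none of the differences. They were 0.19 (95% interval -0.19 to 0.57), 0.01 (-0.37 to 0.39) and 0.31 (-0.07 to 0.70). These intervals leave out a fall of the size seen with any of the intact analogs.

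Rgs2, an RGS protein that prefers Gq, read 6.92, 7.20 and 7.02 in vehicle. The arrays with hPTH(1-34) read 7.46, 7.33 and 7.35, those with hPTH(1-31) 7.58, 7.41 and 7.50, and those with PTH(1-36) 7.53, 7.33 and 7.44. All 9 lay above the 3 vehicle arrays, and such a lack of overlap held in 11% of all genes. Rgs2 rose by 0.45 ± 0.11 (SE) with hPTH(1-31), 1.37-fold (95% interval 0.21 to 0.69, adjusted p = 0.0160, limma). It rose by 0.39 ± 0.11 with PTH(1-36), 1.31-fold (0.15 to 0.63, 0.0458). With hPTH(1-34) the difference was 0.33 ± 0.11, 1.26-fold, and missed the threshold (0.09 to 0.57, 0.0839). The mean of the 3 intact analogs was 0.39 ± 0.09 above vehicle (adjusted p = 0.00803).

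The rise of Rgs2 was smaller than the fall of Rgs4 on the log2 scale, and its calls were near the threshold. The call for the mean was lost without vehicle replicate 1 (difference 0.33, adjusted p = 0.0738, limma). The call with hPTH(1-31) was lost without that array (0.0828), without vehicle replicate 3 (0.0506) or without hPTH(1-31) replicate 1 (0.0711). The call with PTH(1-36) was lost under 11 of 15 alternatives. Averaging in a second and dim array row for Rgs2 (mean 1.85 over all arrays) took the difference of the mean to 0.15 (adjusted p = 0.253). In the truncated groups Rgs2 read 7.08, 6.96 and 7.25 with bPTH(3-34), 7.15, 7.06 and 7.20 with bPTH(7-34), and 7.08, 7.23 and 6.76 with hPTH(7-34). All 3 overlapped vehicle, with differences of 0.05 (-0.19 to 0.29), 0.09 (-0.15 to 0.33) and -0.02 (-0.26 to 0.22).

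**Figure D2:**
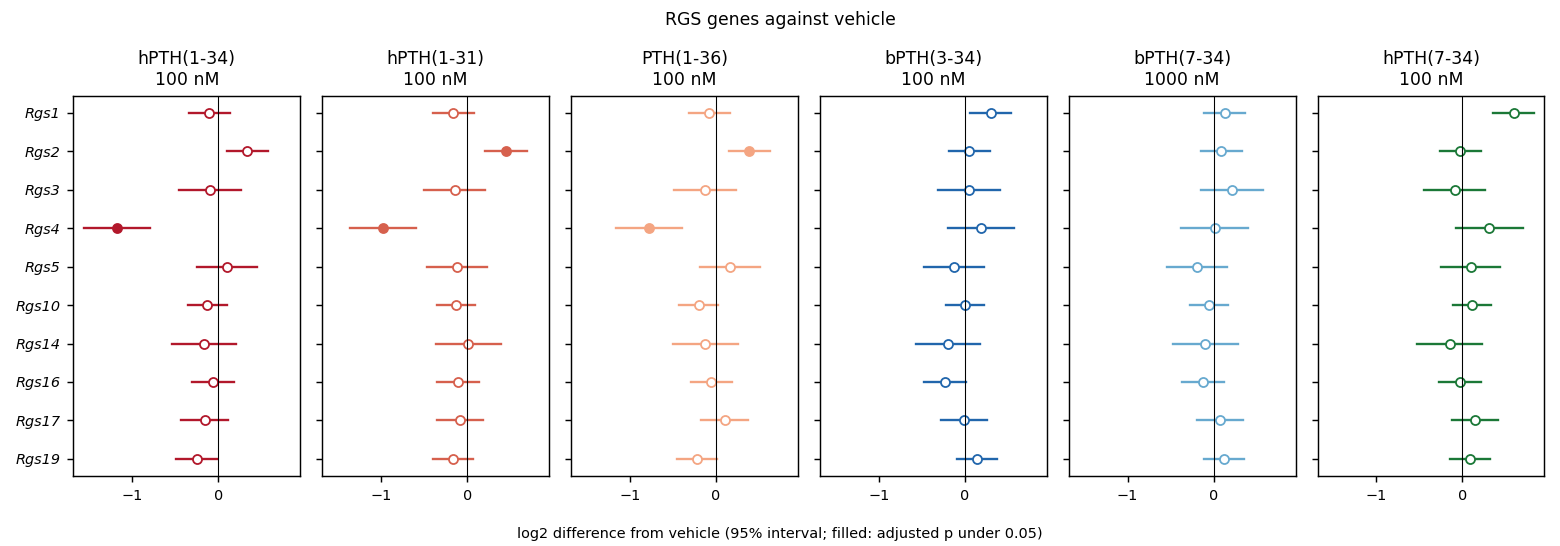
Difference from vehicle in log2 units (horizontal axis) for the 10 RGS genes (rows) with each analog (panels), with 95% intervals; filled points had an adjusted p under 0.05. Rgs4 is filled in the 3 panels of the intact analogs and Rgs2 in those of hPTH(1-31) and PTH(1-36), and no point is filled for the truncated analogs.

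Rgs1 is best known from lymphocytes and myeloid cells, where it limits chemokine receptor signals. Its mean over the 21 arrays was 3.80, below the median of all genes, 4.42. Vehicle arrays read 3.67, 3.70 and 3.74. The arrays with hPTH(7-34) read 4.49, 4.12 and 4.28, those with bPTH(3-34) 3.89, 4.23 and 3.90, and those with bPTH(7-34) 3.80, 3.81 and 3.88. All 9 arrays of the truncated analogs lay above the vehicle arrays. Taken alone, bPTH(3-34) did not overlap vehicle in 10.1% of all genes, bPTH(7-34) in 8.48% and hPTH(7-34) in 12.3%. The share for all 9 arrays together was not counted. The arrays with hPTH(1-34) read 3.74, 3.51 and 3.55, those with hPTH(1-31) 3.45, 3.48 and 3.70, and those with PTH(1-36) 3.71, 3.48 and 3.69, and each of these groups overlapped vehicle.

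The difference of Rgs1 between hPTH(7-34) and vehicle was 0.59 ± 0.11 (SE), 1.51-fold (95% interval 0.36 to 0.83), and missed the threshold over all genes (adjusted p = 0.0758, limma). It passed under 3 of 14 alternatives, with arrays centred on their median (0.0288), with quantile normalization repeated (0.0475) and with array weights (0.0455). For bPTH(3-34) the difference was 0.30 (0.07 to 0.54, adjusted p = 0.745), and for bPTH(7-34) 0.13 (-0.11 to 0.36, 0.998). The intact analogs differed from vehicle by -0.10 (-0.34 to 0.13) for hPTH(1-34), -0.16 (-0.40 to 0.08) for hPTH(1-31) and -0.08 (-0.31 to 0.16) for PTH(1-36).

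Genes of the innate immune response and markers of macrophages were read beside Rgs1. The mean of 21 innate genes lay between 5.58 and 5.79 in the vehicle arrays and between 6.18 and 6.33 with hPTH(7-34), and 5 of the 21 were called higher (0.0721% of all genes were called), Acod1 (by 2.00), Cxcl10 (1.60), Ccl2 (1.16), Tnf (0.95) and Tlr2 (0.86). With hPTH(1-34), where Rgs1 differed from vehicle by -0.10, the same mean lay between 6.31 and 6.35 and 13 of 21 were called higher, beside 8.64% of all genes called. With bPTH(3-34) it lay between 5.63 and 5.87, and limma called 0 of 21, with 0 at an unadjusted p under 0.05. The mean of 16 macrophage markers lay between 8.85 and 9.02 in vehicle and between 8.99 and 9.14 with hPTH(7-34), and limma called 0 of 16 there, with 4 at an unadjusted p under 0.05. The dimmest of these markers was Cx3cr1, at 5.85 in vehicle. The part of either list in the level of Rgs1 was not tested.

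**Figure D3:**
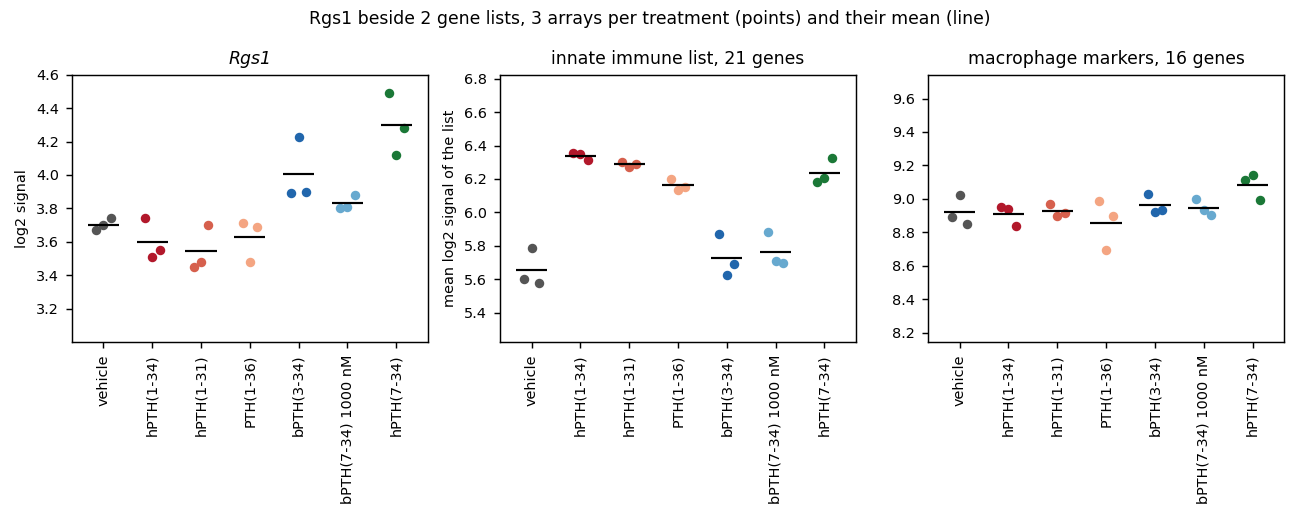
Log2 signal of Rgs1 (left) and the mean log2 signal of 21 innate immune genes (middle) and of 16 macrophage markers (right) in each treatment, with points for the 3 arrays and a line at their mean. The innate mean is high with hPTH(1-34) (6.31 to 6.35) and with hPTH(7-34) (6.18 to 6.33), and Rgs1 is high with hPTH(7-34) (4.12 to 4.49) and not with hPTH(1-34) (3.51 to 3.74).

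Rgs19, also called GAIP, belongs to the RZ subfamily and acts on Gi. Vehicle arrays read 7.67, 7.98 and 7.69. The arrays with hPTH(1-34) read 7.65, 7.65 and 7.28, those with hPTH(1-31) 7.49, 7.74 and 7.61, and those with PTH(1-36) 7.60, 7.51 and 7.57. The arrays with bPTH(3-34) read 8.0, 7.89 and 7.88, those with bPTH(7-34) 7.84, 8.05 and 7.82, and those with hPTH(7-34) 7.80, 7.92 and 7.89. The 9 truncated arrays were all above the 9 intact arrays, a separation whose share among all genes was not counted. The vehicle arrays overlapped those of hPTH(1-31) and of each truncated analog and lay above those of hPTH(1-34) and PTH(1-36). Among all genes, 23.4% did not overlap between hPTH(1-34) and vehicle, and 20.5% between PTH(1-36) and vehicle. No difference from vehicle was called by limma. The mean of the intact analogs was -0.21 ± 0.09 (SE) from vehicle (95% interval -0.40 to -0.02, adjusted p = 0.158), and the truncated analogs were 0.14 (bPTH(3-34)), 0.12 (bPTH(7-34)) and 0.09 (hPTH(7-34)) from it.

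The remaining genes had no call in any comparison, though some groups of theirs did not overlap. Rgs16 was lower with bPTH(3-34) (highest 5.86) than in vehicle (lowest 5.92) and than with hPTH(1-34), and Rgs10 and Rgs17 were higher with hPTH(7-34) than with hPTH(1-34). Rgs17 with PTH(1-36) also lay above hPTH(1-34), and Rgs5 and Rgs16 with hPTH(7-34) above bPTH(3-34). Such a lack of overlap was common among all genes. It held in 10.1% for bPTH(3-34) against vehicle and in 10% for hPTH(7-34) against bPTH(3-34). Against hPTH(1-34) it held in 26.7% with bPTH(3-34), 28.8% with hPTH(7-34) and 9.95% with PTH(1-36). These separations are not a result about the genes. Rgs3 ranged from 3.91 to 4.68 over the 21 arrays, and its intact mean differed from vehicle by -0.13 (95% interval -0.42 to 0.17). Rgs5, known as a marker of pericytes, ranged from 3.76 to 4.88 with a difference of 0.05 (-0.23 to 0.33). Rgs16, which acts on Gi and Gq, ranged from 5.76 to 6.22 with a difference of -0.07 (-0.27 to 0.13). These 3 belong with Rgs1, Rgs2 and Rgs4 to the R4 subfamily of small RGS proteins. Of 9 pericyte markers, Pdgfrb (-0.84), Notch3 (-0.55) and Cspg4 (-0.44) fell with the mean of the intact analogs and Kcnj8 (0.41) and Mcam (0.48) rose. The part of pericyte markers in the level of Rgs5 was not tested.

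In the R12 subfamily, Rgs10, abundant in macrophages and microglia, ranged from 6.23 to 6.77, with a difference of -0.15 (95% interval -0.33 to 0.03). Rgs14, which also binds inactive Gi, ranged from 4.46 to 5.22 with a difference of -0.09 (-0.40 to 0.21). Rgs17 of the RZ subfamily, which acts on Gi and Gz, ranged from 4.96 to 5.63 with a difference of -0.05 (-0.27 to 0.17). In measured signal, the intervals leave out a change of the size of the Rgs4 fall for all 6 genes. Rgs3 (mean 4.38) and Rgs5 (4.37) lay below the median of all genes, 4.42, where RMA compresses differences, so their intervals do not bound a change in transcript level. A second and dimmer row for Rgs5 (mean 2.24) differed by -0.12 ± 0.20 (SE) and was not called.

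Analogs were compared with each other in 6 pairs at 100 nM. Lacking residues 32 to 34, hPTH(1-31) gave 0 calls against hPTH(1-34) among the 10 genes and 0% among all genes, with 994 genes and 0 of the 10 at an unadjusted p under 0.05 in limma. The difference of Rgs4 was 0.20 (95% interval -0.18 to 0.59), of Rgs2 0.12 (-0.12 to 0.36), of Rgs1 -0.06 (-0.29 to 0.18) and of Rgs19 0.09 (-0.15 to 0.32). PTH(1-36) against hPTH(1-34) gave 0 calls among the 10 beside 0.00451% of all genes, and 1 of the 10 among 1423 genes at an unadjusted p under 0.05 in limma. That gene was Rgs4, less reduced with PTH(1-36) by 0.40 (0.02 to 0.78), with an adjusted p of 0.766. hPTH(1-31) against PTH(1-36) also gave 0 calls among the 10 beside 0.00451%, and 0 of the 10 among 1257 genes at an unadjusted p under 0.05, with Rgs4 differing by -0.20 (-0.58 to 0.19). These intervals are wide enough to hold differences between intact analogs of up to 0.78 for Rgs4.

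Losing the first residues gave larger differences. bPTH(3-34), which lacks residues 1 and 2 and is also bovine, gave 3 of the 10 genes a higher level than hPTH(1-34), beside 9.32% of all genes. Rgs4 was 1.37 ± 0.18 (SE) higher, 2.58-fold (adjusted p = 4.25e-05, limma). Rgs1 was 0.41 ± 0.11 higher (0.0286) and Rgs19 0.40 ± 0.11 higher (0.0293). Rgs2 was 0.28 lower and was not called (-0.52 to -0.04, 0.144). The Rgs1 and Rgs19 calls were lost without hPTH(1-34) replicate 3 (adjusted p = 0.0912 and 0.160) or bPTH(3-34) replicate 2 (0.152 and 0.0611). The Rgs1 call was also lost without hPTH(1-34) replicate 2 (0.116), and the Rgs19 call without bPTH(3-34) replicate 1 (0.111) or 3 (0.0596).

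hPTH(7-34), of the same species as hPTH(1-34) and lacking residues 1 to 6, gave 2 of the 10 a higher level, beside 10.9% of all genes. Rgs4 was 1.49 ± 0.18 (SE) higher, 2.82-fold (95% interval 1.11 to 1.88, adjusted p = 1.56e-05, limma). Rgs1 was 0.70 ± 0.11 higher, 1.62-fold (0.46 to 0.93, 0.000365), and this call held under all 14 alternatives tried. Rgs19 was 0.34 higher (0.11 to 0.58, 0.0553) and Rgs2 0.36 lower (-0.60 to -0.12, 0.0519), both just short of the threshold. hPTH(7-34) against bPTH(3-34) gave 0 calls among the 10 beside 0.0496% of all genes, and 1 of the 10, Rgs1, among 1124 genes at an unadjusted p under 0.05. Rgs1 differed by 0.29 (0.05 to 0.53, adjusted p = 0.929) and Rgs4 by 0.12 (-0.26 to 0.51).

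The mean of the intact analogs against bPTH(3-34) came with an SE of 0.09 to 0.15 for the genes that moved, and limma called 4 of the 10 genes, 1 higher and 3 lower, beside 12.6% of all genes. Rgs4 was 1.17 ± 0.15 (SE) lower with the intact analogs, 2.25-fold (adjusted p = 1.75e-05, limma). Rgs1 was 0.42 ± 0.09 lower (0.00466), Rgs19 0.36 ± 0.09 lower (0.0124) and Rgs2 0.34 ± 0.09 higher (0.0198). In all 4 genes the 9 intact arrays lay on 1 side of the 3 bPTH(3-34) arrays, as they did in 12.5% of all genes. Without bPTH(3-34) replicate 2 the calls of Rgs1 (adjusted p = 0.0658) and Rgs2 (0.144) were lost, and without replicate 1 those of Rgs19 (0.0829) and Rgs2 (0.0815). The Rgs2 call was also lost with arrays centred on their median (0.0636) and with the mean of its clusters, which took the difference to 0.20 (0.0797). The Rgs4 call held under all 21 alternatives. The contrast shares its intact arrays with the comparison against vehicle.

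**Figure D4:**
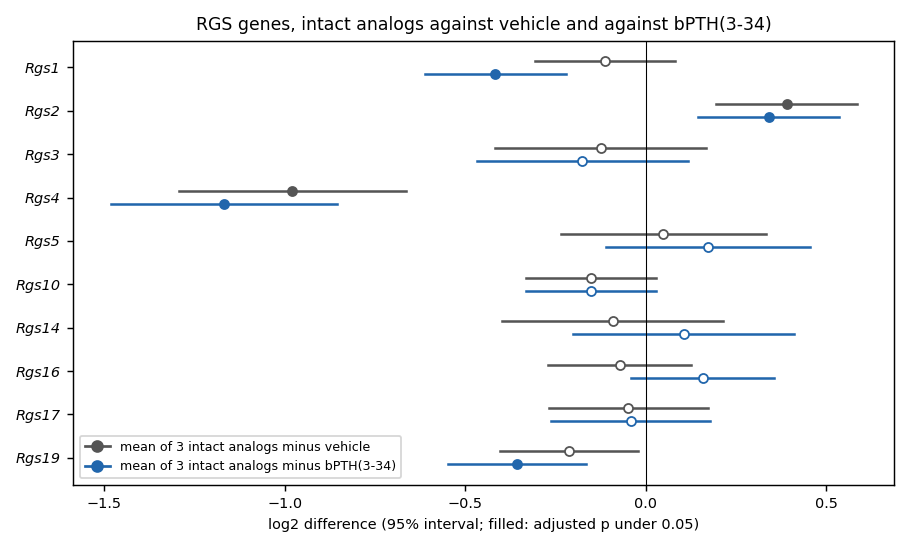
Difference in log2 units (horizontal axis) between the mean of the 3 intact analogs and vehicle (grey) or bPTH(3-34) (blue) for the 10 RGS genes (rows), with 95% intervals; filled points had an adjusted p under 0.05. Rgs4 and Rgs2 are filled against both, at -0.98 and -1.17 and at 0.39 and 0.34, while Rgs1 and Rgs19 are filled against bPTH(3-34) alone.

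The group means of each called gene were put in order as a description, without a test. The largest gap was picked after the values were seen. The spread beside it is that of single arrays and not the error of a difference between means. For Rgs4 the largest gap between neighbours in the order was 0.78, between PTH(1-36) and vehicle, and no other neighbours differed by more than the spread of arrays within groups, 0.24 (SD). For Rgs2 it was 0.24, between bPTH(7-34) and hPTH(1-34), with a spread of 0.13. These peptides were given at unlike doses and were not tested against each other. For Rgs19 the largest gap was 0.17, between hPTH(1-31) and vehicle, with a spread of 0.13. That difference was not called (limma, adjusted p = 0.473), and the arrays overlapped. For Rgs1 the largest gap was 0.29, between bPTH(3-34) and hPTH(7-34), with a spread of 0.13. That difference was not called (limma, adjusted p = 0.929), and the arrays overlapped. The step of 0.18 from bPTH(7-34) to bPTH(3-34) also exceeded the spread, but it joins peptides of unlike dose and sequence and was not tested. The other neighbours of Rgs1, Rgs2 and Rgs19 differed by less than their spread.

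Other RGS genes and RGS-binding proteins gave 1 call with the mean of the intact analogs among 13 measured, no more than the 11.9% called among all genes. Against vehicle, limma called 0 with each truncated analog (0, 0 and 1 at an unadjusted p under 0.05 with bPTH(3-34), bPTH(7-34) and hPTH(7-34)). The call was Rgs12, which also holds domains that bind inactive Gi, and it fell by 0.50 (95% interval -0.79 to -0.22, adjusted p = 0.0182, limma). Rgs12 read 5.85, 6.04 and 6.42 in vehicle and 5.43, 5.49 and 5.76 with hPTH(1-34), lowest first, with no overlap, as in 23.4% of all genes. With hPTH(1-31) it read 5.29, 5.42 and 5.69, also below vehicle (22.1% of all genes did not overlap there) and called (-0.64, limma, adjusted p = 0.0198). With PTH(1-36) it read 5.68, 5.74 and 5.89, which overlapped vehicle and was not called (-0.33, 95% interval -0.68 to 0.02, adjusted p = 0.293). Rgs18, found in platelets and myeloid cells, was 0.57 higher with hPTH(7-34) than with hPTH(1-34) (adjusted p = 0.0157), as Rgs1 was. The neighbours Rgs13 and Rgs21 of Rgs1 were dim, with group medians from 1.5 to 1.89, and Rgs8 beside Rgs16 lay between 4.05 and 4.69 on all arrays. None of these 3 was called in any comparison, nor was Rgs5 beside Rgs4. The median difference of the 13 with the mean of the intact analogs was 0.04, and that of all genes was -0.02.

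Further proteins with an RGS or RGS-like domain, 14 of them measured, include axins, sorting nexins and receptor kinases. With the mean of the intact analogs against vehicle 2 of the 14 were called, near the 11.9% called among all genes, both lower: Grk6, a kinase that phosphorylates active receptors (-0.31, adjusted p = 0.0101, limma), and Arhgef11 (-0.21, 0.0340). Grk6 averaged 6.49 in vehicle and 6.12 to 6.22 with the intact analogs. With bPTH(3-34), bPTH(7-34) and hPTH(7-34) it averaged 6.38, 6.28 and 6.35, also below vehicle. Over the 7 groups Grk6 was not called (limma's F test, adjusted p = 0.106). Against vehicle, limma called 0 of the 14 with each truncated analog (0, 1 and 1 at an unadjusted p under 0.05, in the same order). Snx14 was 0.34 lower with the intact analogs than with bPTH(3-34) (limma, adjusted p = 0.0278).

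The G protein subunits on which RGS proteins act gave calls in both directions. Of 15 alpha subunits, 2 rose and 3 fell with the mean of the intact analogs, where 11.9% of all genes were called (1208 higher and 1439 lower), and limma called 0 with each truncated analog against vehicle (1, 0 and 0 at an unadjusted p under 0.05, in the same order). Gnai1, a Gi subunit, read 6.99, 7.08 and 7.12 in vehicle and 6.15, 6.28 and 6.36 with hPTH(1-34), lowest first. It fell by 0.71 with the mean of the intact analogs (95% interval -0.89 to -0.53, adjusted p = 9.93e-06, limma). Gnaz, the Gz subunit, fell by 0.52 (0.00475). Gnao1, the Go subunit, rose by 0.52 (0.000141), and Gnal, a close relative of the Gs subunit, rose by 0.77 (0.00146). The remaining call was Gna12, lower by 0.22 (0.0469), named for the count after its value was seen. Gnal (mean 3.17 over the 21 arrays) and Gnaz (3.56) lay below the median of all genes, 4.42, where RMA compresses differences.

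Of 13 beta and gamma subunits, 1 rose and 2 fell with the mean of the intact analogs, beside the same 11.9% of all genes. Gng4, a gamma subunit, read 5.24, 5.27 and 5.41 in vehicle and 6.07, 6.29 and 6.31 with hPTH(1-34), lowest first, and rose by 0.90 with the mean (adjusted p = 3.31e-05, limma). Gnb4 fell by 0.34 (0.0149), and Gng2, named for the count after its value was seen, fell by 0.23 (0.0245). Gng2 averaged 6.42 in vehicle and 6.17 to 6.21 with the intact analogs. It was also below vehicle with bPTH(3-34), bPTH(7-34) and hPTH(7-34), at 6.26, 6.29 and 6.30, so its fall is not particular to the intact analogs. Against vehicle, limma called 0 of the 13 with each truncated analog (2, 0 and 0 at an unadjusted p under 0.05, in the same order). Of 13 other regulators and effectors, 0 rose and 6 fell, again beside 11.9% of all genes. All 13 lay above the median of all genes, and calls were more frequent among such genes. With only genes above that median in at least 1 group tested, 3338 of 11646 were called in this comparison. Pth1r, the receptor itself, read 7.12, 7.20 and 7.30 in vehicle and 5.89, 6.04 and 6.40 with hPTH(1-34), lowest first, and fell by 1.07 with the mean (3.75e-07). Gpsm2, which binds inactive Gi, fell by 0.64 (2.88e-05), and the phospholipases of the Gq branch Plcb3 and Plcb4 fell by 0.57 (0.000276) and 0.43 (0.00280). The median difference of these 13 genes was -0.27, where that of all genes was -0.02.

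**Figure D5:**
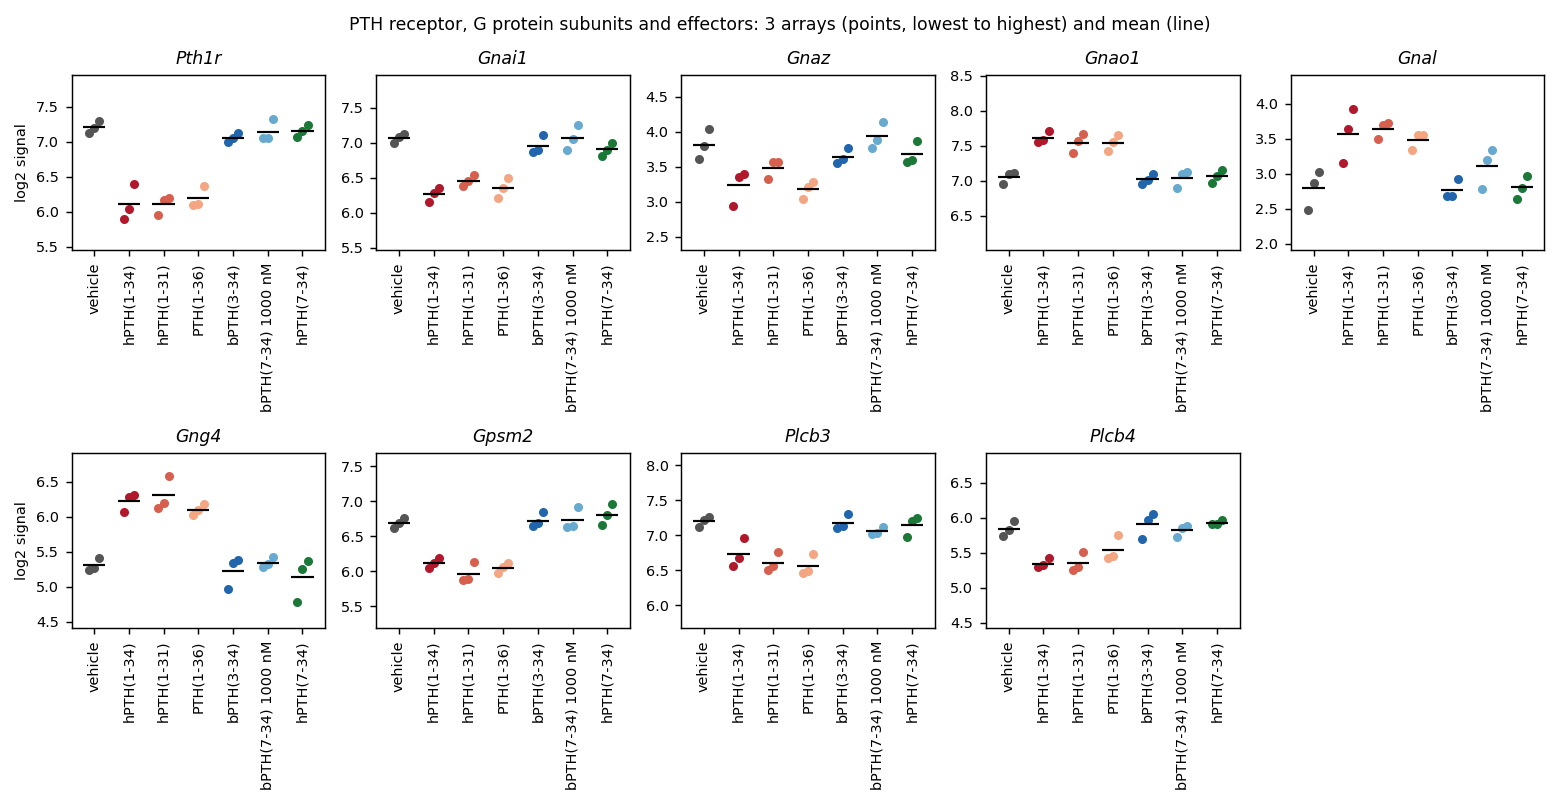
Log2 signal (vertical axis) of the PTH receptor and 8 genes of G protein signalling in each treatment (horizontal axis), with points for the 3 arrays, lowest to highest, and a line at their mean; every panel spans 2.5 log2 units. Pth1r, Gnai1, Gnaz, Gpsm2, Plcb3 and Plcb4 were lower and Gnao1, Gnal and Gng4 higher with the mean of the intact analogs than with vehicle.

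The genes whose pattern over the 21 arrays was most like that of Rgs4, Rgs1 and Rgs2 were taken among genes whose group means ranged over at least 1 log2 unit. Predicted genes, clones, small RNAs and genes that RefSeq lists as other than protein-coding were left out. Rgs1 and Rgs2 themselves ranged over less. High correlations are likely in a pool of genes that all moved between groups. For Rgs4 they were Calhm5 (Pearson r = 0.946), Cyp2r1 (0.942), Fam13c (0.941), Snx7 (0.938) and Bmp4 (0.938), out of 400 genes. For Rgs2 they were Gmppb (0.892), Dph5 (0.890), Rhou (0.887), Ptp4a1 (0.884) and Gal (0.877), out of 401. For Rgs1 the values were lower, with Letm2 (0.821), Cyria (0.782), Cyp2r1 (0.763), Ptchd4 (0.763) and Lrrcc1 (0.758), out of 401. Cyp2r1 was thus among the 5 for both Rgs4 and Rgs1. These correlations describe 21 arrays that share treatments and preparation steps.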

How the data were processed

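RNA of each culture (100 ng) was labelled for Mouse Gene 2.0 ST arrays. The log2 signals were made by the authors with RMA; RMA and Affymetrix Expression Console are listed in the submitters' processing notes without versions or settings. The base of the logarithm is not given in the sources used here and was read as 2 from the method and the range of the deposited values (0.25 to 13.6), so every fold rests on that reading. RMA, in its usual form, brings arrays to a common distribution and compresses differences of dim probes. Arrays have no read depth, so their number limits the precision. All columns were used.

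The table holds 41345 transcript clusters. GEO's platform annotation gives 23521 of them 1 symbol and 1814 several, and 16010 are not listed in it. Clusters with 1 symbol were used, and the highest mean stood for each of the 1082 genes with several, which left 22180 genes. All 10 RGS genes matched RefSeq by gene identifier.

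A single linear model over all 21 arrays was fitted with lmFit and eBayes of limma 3.58.1 in R 4.3.3, with 14 two-sided contrasts adjusted by Benjamini-Hochberg over all genes. The script was tested on simulated data. Figures were drawn with matplotlib 3.10.9.

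The genes and lists were chosen with earlier results of these data known, so counts over lists are descriptions. The naming rule took all 10 genes, up to 4 genes of each list by smallest F p-value (relatives and cell markers also for their levels), and the 5 genes most like each of the 3 with the widest range. Cxcl10, Ccl2, Tlr2 and Kcnj8, like Gna12 and Gng2, fall outside this rule and were named after their values were seen. Arrays were not paired by replicate number, because the labels do not tie a number to 1 preparation across treatments. Deviations of same-numbered arrays correlated at -0.08 to 0.16 over 63 pairs. Their median was 0.03, beside -0.01 for pairs of unlike number, and a replicate block was tried as an alternative. The 9 alternatives, and leaving out each array in turn, are given in the closing section.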

Additional observations from a re-analysis of the deposited data

How the results depend on the processing

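The 20 differences followed, all of Rgs1, Rgs2, Rgs4 and Rgs19, were those with a main adjusted p under 0.1 in limma. Across their 332 alternatives, 278 kept their direction and side of the threshold, 39 lost the call, 15 gained it and 0 reversed. Picking them by that p-value made a reversal unlikely. Among 1933 alternatives to all tests of the 10 genes without a main call, 112 had the other sign and 15 were called. The number of the 10 genes called kept its value, within 1.5 times, in 190 of 222 alternatives. These include the comparisons in which 0 of the 10 were called. With hPTH(1-34) against vehicle it went from 1 to 2 with an intensity trend, with dim genes left out and with quantile normalization repeated. With hPTH(1-31) it went from 2 to 1 when only the groups compared were fitted and with the mean of a gene's clusters, and was 1 to 2 leaving out each array. With PTH(1-36) it went from 2 to 1 under both of those, with centred arrays, all clusters tested, array weights and the replicate block, and was 0 to 1 leaving out each array. With hPTH(7-34) it went from 0 to 1 with centred arrays, repeated quantile normalization and array weights. With the mean of the intact analogs against vehicle it went from 2 to 1 with the mean of clusters, and was 1 to 2 leaving out each array. For bPTH(3-34) against hPTH(1-34) it went from 3 to 1 when only the groups compared were fitted and with all clusters tested, and was 1 to 3 leaving out each array. For hPTH(7-34) against hPTH(1-34) it went from 2 to 4 with an intensity trend. For the intact mean against bPTH(3-34) it was 2 to 4 leaving out each array. The cause of these shifts was not tested. The replicate block, a fit with the replicate number as a term, ended the Rgs2 call with PTH(1-36) (limma, adjusted p = 0.0531) and brought Rgs19 in hPTH(7-34) against hPTH(1-34) past the threshold (0.0341), and it changed no other call of the 10 genes. Of 63 same-numbered pairs 1 correlated above 0.1, with a median of 0.03 beside -0.01 for pairs of unlike number. By the mean correlation with the arrays of each number in other groups, 14 of 21 arrays were closest to their own number. With 3 numbers to choose from, that is more than an even spread over the numbers would give. Whether a number marks 1 preparation was not tested.

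Among all genes, fitting only the groups compared lowered the calls from 1917 to 936 with hPTH(1-34), from 1930 to 928 with hPTH(1-31), from 1603 to 606 with PTH(1-36), from 16 to 0 with hPTH(7-34), from 2068 to 1217 for bPTH(3-34) against hPTH(1-34), from 2409 to 1425 for hPTH(7-34) against hPTH(1-34) and from 11 to 0 for hPTH(7-34) against bPTH(3-34). This setting uses fewer arrays to estimate the spread. The replicate block raised the calls from 1917 to 2190 with hPTH(1-34), from 1930 to 2179 with hPTH(1-31) and from 1603 to 1945 with PTH(1-36). It also raised them from 2068 to 2405 for bPTH(3-34) and from 2409 to 2826 for hPTH(7-34), each against hPTH(1-34). With hPTH(7-34) against vehicle the block took 16 calls to 15. An intensity trend took the calls with hPTH(7-34) from 16 to 30 and with bPTH(7-34) from 0 to 1, and leaving out vehicle replicate 3 took the former to 6. For hPTH(7-34) against bPTH(3-34) the 11 calls became 5 with all clusters tested, 2 without bPTH(3-34) replicate 2, and 4 without bPTH(3-34) replicate 3 or hPTH(7-34) replicate 3. In the pairs of intact analogs, where 0 or 1 gene was called, the alternatives called 0 to 3. No scaling moved the median of all genes by over 0.1.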
